A study of Mus musculus with 7 samples.

Results

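The genes encoded by the mitochondrial genome were taken as the 37 of 56980 genes in the table whose symbol began with mt-, in the naming of GENCODE M21 on the GRCm38 assembly. They comprised 13 protein genes, 2 rRNA genes and 22 tRNA genes, all on chromosome M. Myocardial RNA had been sequenced from 7 wild type male mice of the inbred C57BL/6J strain, 8 weeks old when obtained. The MI group was 3 mice with a ligated left coronary artery, and the control group was 4 sham-operated mice without ligation. Tissue was collected 4 days after ligation, each mouse gave 1 library, and the labels give the tissue as myocardium with no region named. The series was made to follow genes related to angiogenesis after MI, and its libraries also recorded the mitochondrial transcripts described here.

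The mitochondrial genome is a small circle that is transcribed from both strands into long precursors spanning nearly its whole length. The tRNAs lie between most of the protein and rRNA genes, and excision of the tRNAs releases the flanking mRNAs and rRNAs. The proteins are all core subunits of the respiratory chain or of ATP synthase, where they assemble with many more subunits that are encoded in the nucleus and imported. Cardiomyocytes are packed with mitochondria, and mitochondrial transcripts are therefore abundant in myocardial RNA.

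The annotated genes ran from base 1 to base 15422 and were packed with little or no space between them. The 43 bases shared by mt-Atp8 and mt-Atp6, at chrM:7927-7969 on the plus strand, are shown because the reads in them belong to both genes. The capitals mark the start codon of mt-Atp6, inside the reading frame of mt-Atp8.
mt-Atp8 and mt-Atp6: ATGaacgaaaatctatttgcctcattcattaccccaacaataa
On the same strand mt-Nd4l and mt-Nd4 shared 7 bases and mt-Atp6 and mt-Co3 shared 1 base, whereas mt-Nd5 and mt-Nd6 shared 14 bases on opposite strands. It is not given in the sources used here whether counting used the strand.

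The 5 tRNA genes with the highest levels in sham-operated mice are shown first, followed by the 3 whose values in all MI mice lay below those in all sham-operated mice. Each is written 5′ to 3′ on its own strand, as in the GENCODE M21 transcripts, with the anticodon in capitals.
mt-Tl1, leucine, chrM:2676-2750, plus strand: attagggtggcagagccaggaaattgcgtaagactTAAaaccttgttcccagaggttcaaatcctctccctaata
mt-Tm, methionine, chrM:3845-3913, plus strand: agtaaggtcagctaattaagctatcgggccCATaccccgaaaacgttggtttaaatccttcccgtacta
mt-Ti, isoleucine, chrM:3706-3774, plus strand: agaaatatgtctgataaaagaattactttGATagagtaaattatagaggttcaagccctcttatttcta
mt-Tw, tryptophan, chrM:4950-5016, plus strand: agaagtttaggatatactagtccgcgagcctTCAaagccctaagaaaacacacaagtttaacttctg
mt-Tr, arginine, chrM:9808-9875, plus strand: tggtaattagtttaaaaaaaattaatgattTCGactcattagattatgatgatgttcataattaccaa
mt-Tc, cysteine, chrM:5192-5257, minus strand: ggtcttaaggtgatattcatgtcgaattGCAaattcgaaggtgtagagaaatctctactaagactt
mt-Ty, tyrosine, chrM:5260-5326, minus strand: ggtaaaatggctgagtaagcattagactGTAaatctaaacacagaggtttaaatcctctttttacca
mt-Tp, proline, chrM:15356-15422, minus strand: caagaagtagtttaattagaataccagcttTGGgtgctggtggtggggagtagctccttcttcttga

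Levels are given as FPKM, the number of sequenced fragments on a gene scaled by the length of the gene and the size of the library, so that genes of unequal length can be compared. Depth, inferred from the FPKM values, ranged from 19977713 to 23473543 fragments in the sham-operated mice and from 21781014 to 23610870 in the MI mice. MI replicate 2 stood apart from the other MI mice. Across the genes tested, which are not independent replicates, its r with the sham-operated mice was 0.984 to 0.987, compared with 0.897 and 0.92 with MI replicates 1 and 3. Cardiomyocyte markers were present in every library, with a summed level of 8 genes of 13589 to 14878 FPKM in sham-operated mice and 9490, 13537 and 10178 FPKM in MI replicates 1 to 3. The 6 fibroblast markers summed to 100.1 to 123.6 FPKM in sham-operated mice and to 2295, 199.0 and 1748 FPKM in the MI mice, and the 6 macrophage markers to 56.5 to 73.0 FPKM against 357.8, 68.8 and 306.3 FPKM. No marker of these lists was at 0. The share of the library, the counts of genes, the fold changes and the ratios are therefore given with and without MI replicate 2, whereas the rescaled values and the sums with nuclear copies are given with all mice. In bulk tissue, fewer cardiomyocytes and less mitochondrial RNA per cardiomyocyte cannot be told apart.

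In sham-operated mice the 37 genes held 26.8% ± 0.419 (SD, n = 4) of all fragments. The share was 13.6% in MI replicate 1 and 14.9% in MI replicate 3, each below all sham-operated mice, and 28.2% in MI replicate 2, above all of them. The MI mean was 18.9% ± 8.07 (SD, n = 3), a difference of -7.92 percentage points, or -12.6 without MI replicate 2. For every 100 nuclear fragments there were 36.0 to 37.7 mitochondrial fragments in sham-operated mice and 15.7, 39.3 and 17.6 in MI replicates 1 to 3. The 95% Wilson interval of the share, which covers counting error only, was at most 0.0391 percentage points wide in any mouse.

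The protein genes took nearly all of these fragments. Of the mitochondrial fragments, 96.8% ± 0.131 lay on the 13 protein genes in sham-operated mice (SD, n = 4) and 96.9% ± 0.685 in MI mice (SD, n = 3). The rRNA genes held 3.09% ± 0.13 in sham-operated mice and 2.91%, 3.69% and 2.37% in MI replicates 1 to 3. MI replicate 2 was above the sham range of 2.94% to 3.26%, and the other MI mice were below it. The tRNA genes held 0.099% to 0.11% in sham-operated mice and 0.0807%, 0.114% and 0.072% in the MI mice. MI replicates 1 and 3 were below the sham range for the tRNA genes too, and MI replicate 2 was above it. By complex, 53.3% ± 0.55 of the mitochondrial fragments came from complex IV genes, 29.0% ± 0.493 from complex I, 11% ± 0.219 from complex III and 3.43% ± 0.0729 from complex V in sham-operated mice (SD, n = 4). In MI mice the same shares were 54.6% ± 1.73, 27.5% ± 1.49, 11.3% ± 0.553 and 3.57% ± 0.189 (SD, n = 3). The groups overlapped for each complex, but only because of MI replicate 2. For complex I, MI replicates 1 and 3 were below the sham range, at 27.7% and 25.9% against 28.6% to 29.7%. For complexes III, IV and V they were above it, MI replicate 1 only slightly for complex IV. The shares of the 4 complexes moved less between mice than the total did.

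**Figure D1:**
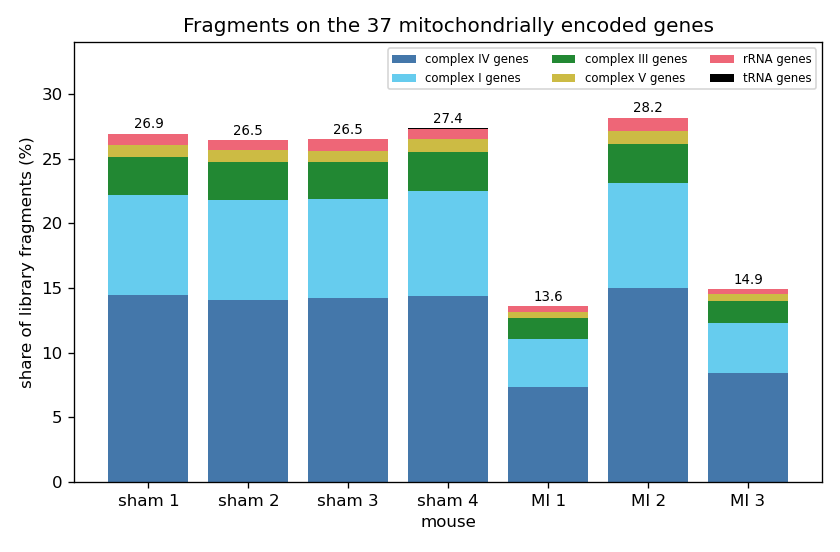
Share of library fragments (%) on the mitochondrially encoded genes in each mouse, with bars stacked by respiratory complex, rRNA and tRNA genes and starting at 0. MI replicates 1 and 3 reached 13.6% and 14.9%, whereas MI replicate 2 reached 28.2%, above the 26.5% to 27.4% of the 4 sham-operated mice.

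The level of a protein gene differed up to 104-fold from that of another in the same sham-operated mouse, and the order was led by complex IV. mt-Co1 (ENSMUSG00000064351, chrM:5328-6872, plus strand), the catalytic subunit of cytochrome c oxidase, ranked first among all genes of the table in every mouse. Its level was 65081, 63145, 64860 and 65094 FPKM in sham replicates 1 to 4 and 32448, 68959 and 38057 FPKM in MI replicates 1 to 3. MI replicates 1 and 3 were below every sham-operated mouse and MI replicate 2 was above every one. The low position of MI replicates 1 and 3 recurred in most of the 37 genes. mt-Co1 alone held 36.7% to 37.8% of the mitochondrial fragments in sham-operated mice and 36.9%, 37.8% and 39.4% in the MI mice. Members of the mitochondrial genome filled 13 of the 20 highest places in each sham-operated mouse, and 12, 14 and 12 in MI replicates 1 to 3.

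The other subunits of complex IV that the mitochondrial genome encodes were next in level. mt-Co3 (ENSMUSG00000064358, chrM:8607-9390, plus strand) stood at 32045, 31252, 30295 and 30992 FPKM in sham-operated mice and at 16541, 31605 and 18718 FPKM in MI mice. mt-Co2 (ENSMUSG00000064354, chrM:7013-7696, plus strand), which carries the copper site that accepts electrons from cytochrome c, stood at 27739, 27764, 27312 and 27742 FPKM in sham-operated mice and at 14689, 27869 and 16033 FPKM in MI mice. In both genes MI replicates 1 and 3 lay near 0.6 of the sham mean or below it, with ratios of 0.531 and 0.601 for mt-Co3 and 0.531 and 0.58 for mt-Co2. MI replicate 2 lay at 1.01 times the sham mean in both.

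mt-Cytb (ENSMUSG00000064370, chrM:14145-15288, plus strand), cytochrome b, is the sole complex III subunit encoded here. It was measured at 26052, 25866, 24767 and 26475 FPKM in sham-operated mice and at 13957, 26372 and 15068 FPKM in MI mice. Its sham mean of 25790 ± 728 FPKM was within the spread of that of mt-Atp8, at 25769 ± 849 FPKM (SD, n = 4), so these genes were not separated in the order of levels. mt-Atp8 (ENSMUSG00000064356, chrM:7766-7969, plus strand) and mt-Atp6 (ENSMUSG00000064357, chrM:7927-8607, plus strand) encode membrane subunits of ATP synthase and are known to share one transcript. The level of mt-Atp8 was 26643, 25437, 24743 and 26254 FPKM in sham-operated mice and 14021, 26651 and 14578 FPKM in MI mice. That of mt-Atp6 was 5953, 5578, 5650 and 6006 FPKM in sham-operated mice and 3238, 5911 and 3555 FPKM in MI mice. The FPKM ratio of mt-Atp8 to mt-Atp6 was 4.37 to 4.56 in sham-operated mice and 4.33, 4.51 and 4.10 in MI mice. Of the fragments assigned to mt-Atp6 and to an identical nuclear copy of it together, 40.2% to 44.3% were on the copy, so the level of mt-Atp6 is uncertain.

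The 7 complex I genes spanned sham means from 938 to 18683 FPKM. mt-Nd1 (ENSMUSG00000064341, chrM:2751-3707, plus strand), part of the proton-pumping membrane arm near the quinone site, stood at 19028, 18369, 18196 and 19139 FPKM in sham-operated mice and at 8496, 18014 and 8194 FPKM in MI mice. All MI mice lay below all sham-operated mice, although MI replicate 2 came close to the lowest of them. As a share of mitochondrial fragments mt-Nd1 was also lower in each MI mouse, at 5.98%, 6.12% and 5.25%, compared with 6.56% to 6.76% in sham-operated mice. mt-Nd3 (ENSMUSG00000064360, chrM:9459-9806, plus strand) was the other protein gene without overlap in FPKM, at 5055, 4803, 4425 and 4574 FPKM in sham-operated mice and 2595, 4380 and 2673 FPKM in MI mice. Its share of mitochondrial fragments overlapped between the groups, at 0.58% to 0.653% against 0.664%, 0.541% and 0.623%.

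The remaining plus strand genes of complex I are further membrane arm subunits with intermediate levels. mt-Nd4 (ENSMUSG00000064363, chrM:10167-11544) had 14476, 13959, 13801 and 14817 FPKM in sham-operated mice and 7665, 15230 and 7788 FPKM in MI mice. mt-Nd2 (ENSMUSG00000064345, chrM:3914-4951) had 13227, 13088, 12549 and 13603 FPKM in sham-operated mice and 5991, 13436 and 6061 FPKM in MI mice. These levels of mt-Nd2 and mt-Nd4 overlapped between the groups only because of MI replicate 2. mt-Nd4l (ENSMUSG00000065947, chrM:9877-10173) had 13056, 12391, 12269 and 13212 FPKM in sham-operated mice and 6510, 13285 and 6296 FPKM in MI mice. mt-Nd5 (ENSMUSG00000064367, chrM:11742-13565) had 10482, 11421, 11602 and 12267 FPKM in sham-operated mice and 5381, 12504 and 5827 FPKM in MI mice. The sham ranges of mt-Nd2 and mt-Nd4l overlapped, and those of mt-Nd1, mt-Nd4 and mt-Nd5 did not overlap with one another.

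mt-Nd6 (ENSMUSG00000064368, chrM:13552-14070) is the only protein gene on the minus strand and was the lowest in every mouse. Its level was 625, 638, 1350 and 1140 FPKM in sham-operated mice and 292, 1386 and 597 FPKM in MI mice. Sham replicates 1 and 2 were thus close to MI replicate 3, and sham replicates 3 and 4 were well above them. Relative to its mean, no other protein gene was so uneven among the sham-operated mice, where the SD of mt-Nd6 was 365 FPKM around a mean of 938. As a share of mitochondrial fragments mt-Nd6 made up 0.12%, 0.125%, 0.264% and 0.216% in sham-operated mice and 0.112%, 0.255% and 0.208% in MI mice, which did not follow the groups. Behind these shares were 3303 to 16451 fragments per mouse, so counting error was small against the spread between mice.

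**Figure D2:**
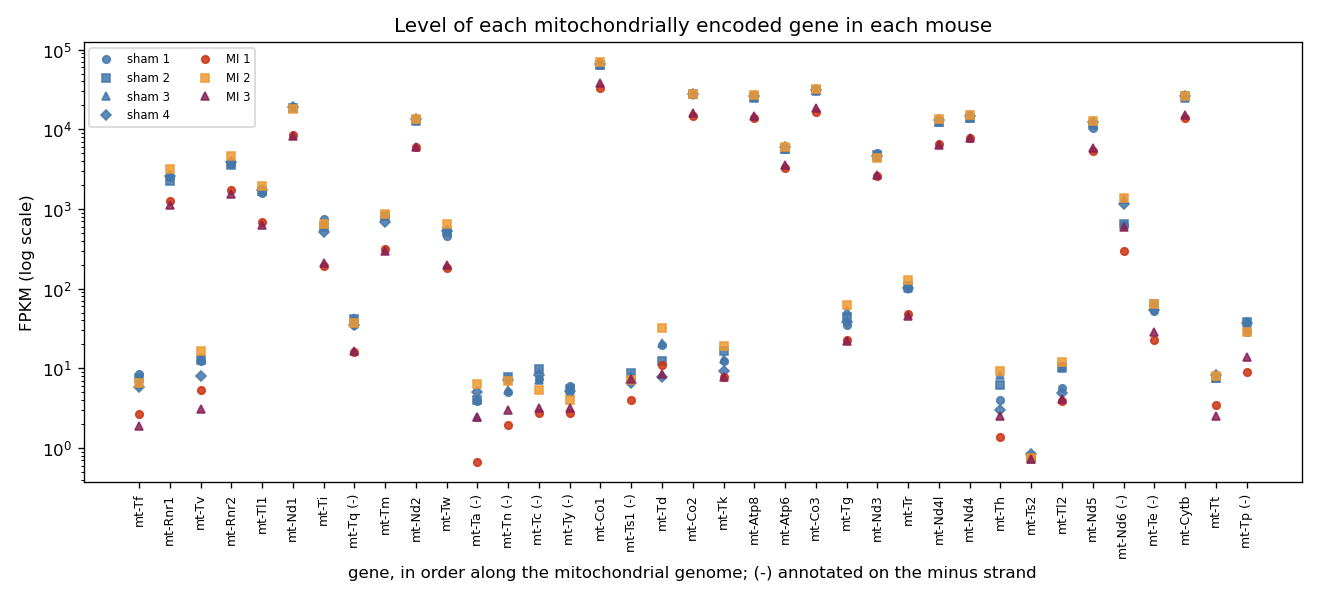
FPKM on a log scale of each of the 37 genes, in order along the mitochondrial genome, with 1 point per mouse and (-) for genes annotated on the minus strand. The protein genes stand between 292 and 68959 FPKM, and most tRNA genes stand far below them. MI replicates 1 and 3 lie under all sham-operated mice in 34 of the 37 genes, compared with 16.9% of all genes tested. The exceptions are mt-Ts1, mt-Td and mt-Ts2.

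The 2 rRNA genes were lower than 12 of the 13 protein genes in sham-operated mice. mt-Rnr1 (ENSMUSG00000064337, chrM:70-1024, plus strand), the small ribosomal subunit RNA, stood at 2497, 2255, 2593 and 2552 FPKM in sham-operated mice and at 1253, 3205 and 1127 FPKM in MI mice. mt-Rnr2 (ENSMUSG00000064339, chrM:1094-2675, plus strand), the large ribosomal subunit RNA, stood at 3706, 3558, 3895 and 3822 FPKM in sham-operated mice and at 1745, 4639 and 1556 FPKM in MI mice. In both genes MI replicate 2 was above all sham-operated mice, at 1.3 and 1.24 times the sham mean, and the other MI mice were at 0.507 and 0.466 (replicate 1) and at 0.456 and 0.416 (replicate 3). The library protocol is given only as a standard one, and whether rRNA was removed or poly(A) RNA selected is not given in the sources used here.

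The levels of the tRNA genes ran from 0.777 to 1672 FPKM as sham means. The 4 highest, mt-Tl1, mt-Tm, mt-Ti and mt-Tw, held 88.8% to 91.4% of all tRNA fragments in a mouse, which numbered 2392 to 7299. Each of the 4 abuts or overlaps a protein or rRNA gene, but so do tRNA genes with low levels. Among these, mt-Tv lies directly between mt-Rnr1 and mt-Rnr2 (sham mean 11.6 FPKM), and mt-Ts1 shares 3 bases with mt-Co1 (7.59 FPKM). mt-Tl1 lies directly between mt-Rnr2 and mt-Nd1, mt-Tm directly before mt-Nd2, mt-Ti shares 2 bases with mt-Nd1, and mt-Tw shares 2 bases with mt-Nd2. Of the 14 tRNA genes on the plus strand, 5 had a sham mean above 100 FPKM, whereas 0 of the 8 on the minus strand did. Fewer than 50 fragments in every mouse lay behind 12 of the 22 tRNA genes, and mt-Ts2 (serine) had 1 fragment in each of the 7 mice.

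The highest tRNA gene, mt-Tl1, was measured at 1573, 1695, 1691 and 1730 FPKM in sham-operated mice and at 683, 1929 and 629 FPKM in MI mice. mt-Tm was measured at 812, 804, 817 and 678 FPKM in sham-operated mice and at 317, 851 and 298 FPKM in MI mice. Both were below all sham-operated mice in MI replicates 1 and 3 and above all in MI replicate 2. mt-Ti had 753, 586, 631 and 510 FPKM in sham-operated mice and 191, 652 and 209 FPKM in MI mice. mt-Tw had 454, 517, 549 and 531 FPKM in sham-operated mice and 181, 642 and 198 FPKM in MI mice. In MI replicates 1 and 3 these 4 genes had 0.308 to 0.409 of their sham mean, compared with 0.439 to 0.462 for the neighbouring mt-Nd1 and mt-Nd2 and with 0.466 and 0.416 for mt-Rnr2, the other neighbour of mt-Tl1. mt-Tr, for arginine, had 102, 106, 101 and 102 FPKM in sham-operated mice and 47.9, 127 and 45.5 FPKM in MI mice.

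In 3 of the 22 tRNA genes, all on the minus strand, the MI mice lay below all sham-operated mice, compared with 9.00% of all genes tested. mt-Tp had 28.6, 38.5, 35 and 37.4 FPKM in sham-operated mice and 8.91, 28.3 and 13.9 FPKM in MI mice, and MI replicate 2 came close to sham replicate 1. mt-Tc had 7.43, 9.78, 7.10 and 8.34 FPKM in sham-operated mice and 2.78, 5.35 and 3.21 FPKM in MI mice. mt-Ty had 5.99, 5.50, 5.09 and 5.23 FPKM in sham-operated mice and 2.74, 3.96 and 3.16 FPKM in MI mice. The values rest on few fragments, 11 to 14 in sham-operated and 4 to 8 in MI mice for mt-Tc, and 7 to 9 against 4 to 6 for mt-Ty, while mt-Tp had 43 to 56 against 13 to 43. The other 14 tRNA genes had sham means between 0.777 and 57.9 FPKM, and their groups overlapped.

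MI and sham-operated mice were compared by limma on log2(FPKM + 1) across the 11431 genes with at least 1 FPKM in at least 3 mice, with p-values adjusted over all of them. Of the 37 mitochondrial genes, 36 passed this filter, and mt-Ts2 did not. With all mice, 0 of the 36 were lower and 0 were higher at an adjusted p under 0.05 by limma, where 0.00875% of all genes tested were lower and 0.0175% higher. With unadjusted p-values under 0.05 taken instead, 9 were lower and 0 higher, against 9.85% and 29.5% of all genes. These 9 were mt-Nd1, mt-Nd3 and the tRNA genes mt-Tf, mt-Ti, mt-Tq, mt-Tc, mt-Ty, mt-Tt and mt-Tp. By direction alone 35 of 36 had a lower mean in MI mice, compared with 27.0% of all genes tested, and the exception was mt-Td at a log2 fold change of 0.04. The MI mice lay below all sham-operated mice in 5 of 36 genes, compared with 9.00% of all genes tested.

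The median log2 fold change of the 36 genes was -0.62, and that of the 13 protein genes was -0.56, whereas the median over all genes tested was 0.21. Relative to that shift the mitochondrial genes were lower still: when the libraries were scaled by their median log-ratio, which brought the median of all genes to 0.00, the median of the 36 was -0.87 and all 36 were lower, compared with 49.6% of all genes. Scaled by nuclear fragments alone, the medians were -0.76 for the 36 and 0.11 for all genes. Under both scalings MI mice lay below all sham-operated mice in 2 of 36 genes, compared with 13.5% and 10.6% of all genes. These were mt-Tc and mt-Ty, which rest on few fragments, whereas mt-Nd1, mt-Nd3 and mt-Tp overlapped between the groups once scaled. Rescaled to TPM, the medians were -0.44 and 0.42.

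Single genes showed how wide the errors were with all mice included. The log2 fold change of mt-Nd1 was -0.79 ± 0.33 (SE), with an adjusted p of 0.123 by limma. It was -0.59 ± 0.24 for mt-Nd3 (adjusted p = 0.116), -0.55 ± 0.36 for mt-Co1 (adjusted p = 0.253) and -0.54 ± 0.30 for mt-Cytb (adjusted p = 0.197). The other protein genes lay between -0.74 for mt-Nd2 and -0.51 for mt-Atp6 and mt-Nd6, where mt-Nd6 had an SE of 0.54. The complex IV, III and V genes were thus close together, and mt-Nd1 and mt-Nd2 of complex I stood at the low end. For the rRNA genes the change was -0.58 ± 0.36 (mt-Rnr1, adjusted p = 0.237) and -0.69 ± 0.38 (mt-Rnr2, adjusted p = 0.192). The tRNA genes without overlap had -1.13 ± 0.34 (mt-Tp), -0.97 ± 0.20 (mt-Tc) and -0.60 ± 0.12 (mt-Ty), each with an adjusted p of 0.108 by limma. The tRNA genes therefore spanned a wider range than the protein genes, on far fewer fragments. Of the 5 highest tRNA genes, the change ran from -1.05 ± 0.42 for mt-Ti to -0.65 ± 0.34 for mt-Tr.

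Without MI replicate 2 the mitochondrial genes fell almost throughout. At an adjusted p under 0.05 by limma, 33 of the 36 were lower and 0 higher, compared with 14.7% and 57.0% of all genes tested. All 13 protein genes and both rRNA genes fell, and 18 of the 21 tRNA genes tested did. The exceptions, mt-Ts1, mt-Tl2 and mt-Td, had adjusted p-values of 0.113, 0.0512 and 0.242. The median log2 fold change was -1.06 for the 36 genes, -0.88 for the protein genes, -1.12 for the rRNA genes and -1.16 for the tRNA genes, compared with 0.33 for all genes. In these mice mt-Nd1 had the largest change among protein genes, -1.16 ± 0.05 (SE, adjusted p = 6.6e-06), and mt-Atp6 the smallest, -0.77 ± 0.06 (adjusted p = 6.18e-05). mt-Co1 changed by -0.88 ± 0.07 and mt-Rnr2 by -1.18 ± 0.07, with adjusted p-values of 5.91e-05 and 1.59e-05. Among the protein genes mt-Nd6 was closest to the threshold, at -1.08 ± 0.41 (adjusted p = 0.0476). The change was -0.84 for mt-Nd3, -0.83 for mt-Cytb, -1.12 for mt-Nd2 and -1.05 for mt-Rnr1, and for the 3 tRNA genes whose groups did not overlap it was -1.55 for mt-Tp, -1.19 for mt-Tc and -0.71 for mt-Ty. The 5 highest tRNA genes had changes from -1.61 (mt-Ti) to -1.12 (mt-Tr). This comparison rests on 2 MI mice. MI replicate 2 was singled out for its values in these same data, and leaving it out removes its spread. The SEs and p-values of this comparison are therefore descriptive and do not measure the spread among all MI mice.

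**Figure D3:**
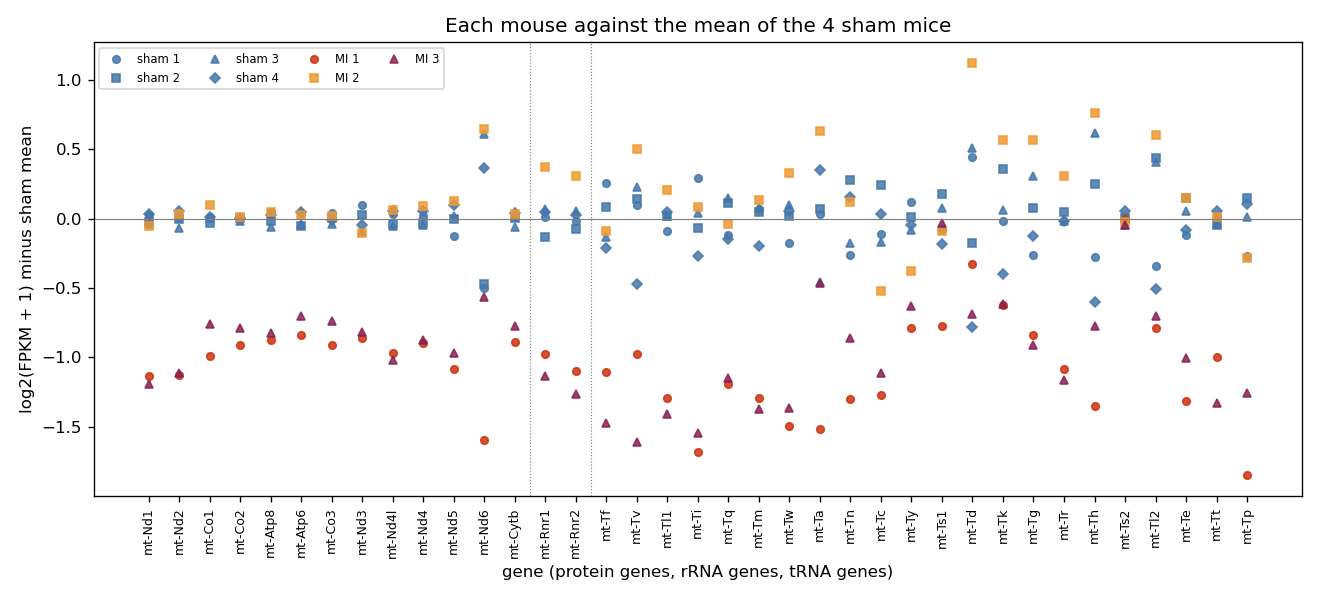
Each mouse's log2(FPKM + 1) minus the mean of the 4 sham-operated mice, for protein, rRNA and tRNA genes from left to right, with 1 point per mouse and a line at 0. MI replicates 1 and 3 lie below all sham-operated mice in 13 of 13 protein genes, 2 of 2 rRNA genes and 19 of 22 tRNA genes, compared with 16.9% of all genes tested. MI replicate 2 lies near or above 0 in most.

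MI replicates 1 and 3 were below every sham-operated mouse in 34 of the 36 genes tested, compared with 16.9% of all genes. MI replicate 2 was above every sham-operated mouse in 7 of 13 protein genes, 2 of 2 rRNA genes and 11 of 22 tRNA genes, compared with 20.4% of all genes tested, and below every one in 2, 0 and 3, respectively, compared with 30.2%. Its median ratio to the sham mean was 1.02 for protein genes and 1.10 for tRNA genes. The corresponding medians were 0.531 and 0.414 in MI replicate 1 and 0.567 and 0.457 in MI replicate 3. The cardiomyocyte marker sum was likewise low in MI replicates 1 and 3, whereas the fibroblast and macrophage marker sums were high in these mice. In MI replicate 2 the fibroblast sum was also above the sham range, at 199.0 FPKM against 100.1 to 123.6 FPKM. The part of these cell types in the mitochondrial levels was not tested. Erythroid markers, from cells that lack mitochondria when mature, summed to 370.8 to 773.8 FPKM in sham-operated mice and to 2390, 590.7 and 1014 FPKM in MI mice, and their part was not tested either.

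Ratios formed within a mouse are free of its depth, and those between 2 mitochondrial genes are also free of the total mitochondrial share. An exact two-sided permutation test over the 35 splits of 7 mice was run on 7 log2 ratios, 3 between mitochondrial genes and 4 of a mitochondrial to a nuclear gene, and the smallest p it can give is 0.0571. The ratio of mt-Rnr2 to mt-Rnr1 was 0.57, 0.66, 0.59 and 0.58 in sham-operated mice and 0.48, 0.53 and 0.46 in MI mice on the log2 scale. All MI mice were below all sham-operated mice, MI replicate 2 included, by -0.11 on average, with that smallest exact p of 0.0571 and an adjusted p of 0.4. The ratio of mt-Nd6 to mt-Cytb, a minus strand against a plus strand gene, differed by 0.04 (exact p = 0.971), with -5.38, -5.34, -4.20 and -4.54 in sham-operated mice and -5.57, -4.25 and -4.65 in MI mice. The ratio of mt-Rnr2 to mt-Co1 differed by -0.13 (exact p = 0.629) and was -3.89 in MI replicate 2 and -4.61 in MI replicate 3, on either side of the sham range of -4.15 to -4.06. Without MI replicate 2 these 3 differences were -0.13, -0.25 and -0.31, with exact p-values of 0.133, 0.533 and 0.133, where 0.133 is the smallest that 6 mice allow. It is not given in the sources how strand and rRNA were handled, and both bear on these ratios.

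Respiratory complexes join mitochondrial and nuclear subunits, so the nuclear genes of the same complexes were set beside them. Of 7 nuclear core genes of complex I, all 7 were lower in MI mice at an unadjusted p under 0.05, against 9.85% of all genes tested, with a median log2 fold change of -0.58. The same held for 4 of 4 genes of complex II, which has no mitochondrial subunit (median -0.59), 7 of 9 of complex III (-0.63), 6 of 10 of complex IV (-0.54) and 8 of 15 of complex V (-0.45). At an adjusted p under 0.05 by limma, 0 of these genes were lower with all mice. Without MI replicate 2 the counts at an adjusted p under 0.05 were 7, 4, 8, 8 and 13, respectively, against the 14.7% of all genes.

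Examples are given from each complex, taken from the genes lower at an unadjusted p under 0.05, so they do not stand for the members that missed it. Ndufs1, the large iron-sulfur subunit of complex I, stood at 68.5, 63.7, 67.0 and 64.5 FPKM in sham-operated mice and at 32.7, 62.2 and 37.9 FPKM in MI mice. Sdha, the flavoprotein of complex II, stood at 260.8, 264.1, 274.3 and 259.5 FPKM in sham-operated mice and at 124.3, 275.9 and 139.6 FPKM in MI mice. Uqcrc1, a core subunit of complex III, stood at 200.2, 205.0, 205.0 and 183.1 FPKM in sham-operated mice and at 87.7, 186.0 and 107.0 FPKM in MI mice. MI replicates 1 and 3 were the lowest of the 7 mice in each of them. Cox6a2, the heart and muscle form of a complex IV subunit, had 1392, 1459, 1390 and 1349 FPKM in sham-operated mice and 631.8, 1378 and 776.8 FPKM in MI mice. Atp5g1, a membrane ring subunit of ATP synthase, had 39.3, 39.0, 37.3 and 36.0 FPKM in sham-operated mice and 16.8, 31.8 and 21.3 FPKM in MI mice, without overlap. Without MI replicate 2 the log2 fold changes of these 5 genes ran from -1.02 to -0.89, with adjusted p-values of 2.31e-05 to 0.000132.

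Within-mouse ratios of a mitochondrial to a nuclear subunit overlapped between the groups in all 4 pairs. On the log2 scale the difference between MI and sham-operated mice was -0.17 for mt-Nd1 to Ndufs1 (exact p = 0.229), 0.10 for mt-Cytb to Cyc1 (exact p = 0.457), -0.07 for mt-Co1 to Cox4i1 (exact p = 0.686) and 0.06 for mt-Atp6 to Atp5a1 (exact p = 0.457). The adjusted p was 0.8 for each of the 4. In MI mice mt-Nd1 to Ndufs1 was 7.98, 8.16 and 7.72, compared with 8.06 to 8.19 in sham-operated mice, so MI replicates 1 and 3 lay below the sham range and MI replicate 2 within it. mt-Cytb to Cyc1 was 8.09, 8.06 and 7.72 against 7.79 to 7.98, so MI replicates 1 and 2 were above the sham range and MI replicate 3 below it. mt-Co1 to Cox4i1 was 7.23, 7.81 and 7.59 against 7.48 to 7.69, and mt-Atp6 to Atp5a1 was 3.19, 3.04 and 3.02 against 2.95 to 3.11. For mt-Co1 to Cox4i1, MI replicate 1 was below the sham range and MI replicate 2 above it. For mt-Atp6 to Atp5a1, MI replicate 1 was above it and the others within it. Without MI replicate 2 the 4 differences were -0.28, 0.051, -0.20 and 0.077, with exact p-values of 0.133, 0.8, 0.267 and 0.4. A p above the threshold in 7 mice does not show that the ratios were equal.

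Averaged over a complex, the mitochondrial genes stood against the nuclear ones differently in each MI mouse. Relative to the sham mean, the 7 mitochondrial genes of complex I were at -1.10, 0.12 and -0.93 (mean log2) in MI replicates 1 to 3, and the 7 nuclear core genes at -0.98, -0.13 and -0.67. The mitochondrial minus nuclear difference in MI replicate 3 was -0.26 for complex I, -0.19 for complex III, -0.20 for complex IV and -0.29 for complex V, below the sham range in all 4. In MI replicate 2 it was 0.24, 0.16, 0.13 and 0.11, above the sham range in all 4. MI replicate 1 was below the sham range for complexes I, IV and V, at -0.11, -0.16 and -0.13, and within it for complex III, at 0.06. These differences are descriptions of single mice, with no test.

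**Figure D4:**
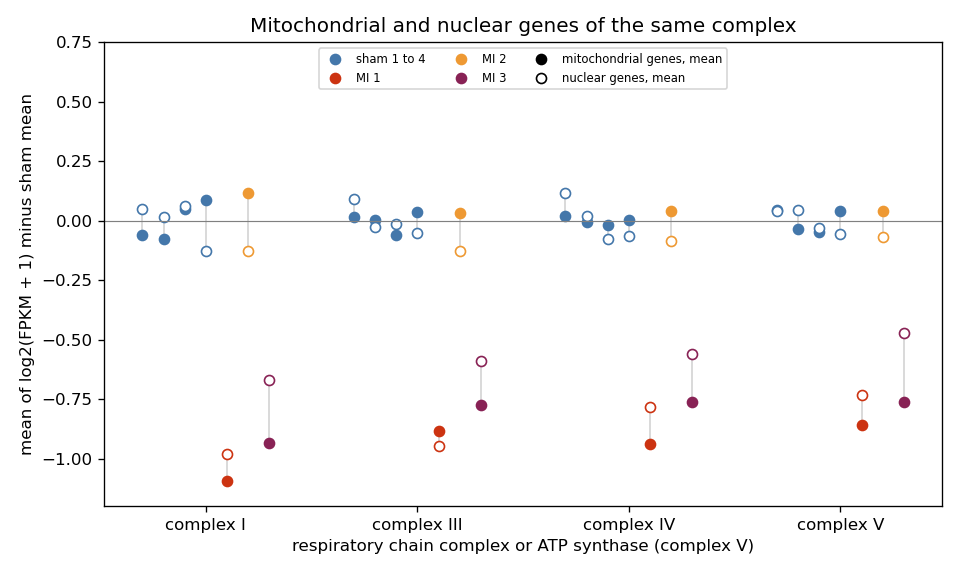
Mean of log2(FPKM + 1) minus the sham mean for the mitochondrial genes (filled) and the nuclear genes (open) of complexes I, III, IV and V, with 1 pair of points per mouse joined by a line. Both kinds of gene are low in MI replicates 1 and 3, and the filled point is under the open one by 0.19 to 0.29 in MI replicate 3.

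Of 24 listed nuclear genes that transcribe and maintain mitochondrial DNA, 21 were tested, with 2 higher and 2 lower at an unadjusted p under 0.05, against 29.5% and 9.85% of all genes. Their median log2 fold change was -0.06, 13 of the 21 had a lower mean in MI mice, against 27.0% of all genes, and all MI mice were below all sham-operated mice in 4, against 9.00% of all genes, and above them in 1, against 16.1% of all genes. The 4 were Tfam, Mterf2, Tfb1m and Polrmt, and the 1 was Polg, a subunit of the mitochondrial DNA polymerase, the last 3 of these genes being named after their values were seen. Tfam, the factor that packages mitochondrial DNA and starts its transcription, had 7.83, 8.01, 7.47 and 7.43 FPKM in sham-operated mice and 7.00, 6.22 and 6.09 FPKM in MI mice. All MI mice were below all sham-operated mice, at a log2 fold change of -0.23 ± 0.09 (SE, adjusted p = 0.114 by limma) and of -0.20 without MI replicate 2 (adjusted p = 0.0325). Mterf2, of the mitochondrial termination factor family, had 5.83, 5.15, 6.69 and 5.31 FPKM in sham-operated mice and 3.01, 4.68 and 2.64 FPKM in MI mice (log2 fold change -0.62 ± 0.17, and -0.81 without MI replicate 2). Rnaseh1, which removes RNA from RNA-DNA hybrids, and Slc25a36, a pyrimidine nucleotide carrier, had log2 fold changes of 0.29 ± 0.12 and 0.43 ± 0.16, and of 0.40 and 0.64 without MI replicate 2. At an adjusted p under 0.05 by limma, 0 of the 21 were higher or lower with all mice, and 6 were higher and 5 lower without MI replicate 2, against 57.0% and 14.7% of all genes.

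Of 32 nuclear genes for processing, modification and decay of mitochondrial RNA, 29 were tested, with 1 higher and 9 lower at an unadjusted p under 0.05, against 29.5% and 9.85% of all genes, and a median of -0.15. Lrpprc, which stabilises mitochondrial mRNAs and supports their polyadenylation, had 23.5, 23.2, 25.3 and 24.0 FPKM in sham-operated mice and 11.3, 23.0 and 13.5 FPKM in MI mice. Its log2 fold change was -0.62 ± 0.22 (SE), with an adjusted p of 0.109 by limma, and -0.91 without MI replicate 2 (adjusted p = 7.71e-05). Hsd17b10, a subunit of the mitochondrial RNase P that cuts the 5′ ends of the tRNAs, had 45.4, 39.0, 48.3 and 43.8 FPKM in sham-operated mice and 22.8, 37.5 and 32.7 FPKM in MI mice. Fastk, which has a mitochondrial form needed for mt-Nd6 mRNA, had 11.6, 11, 11.2 and 10.6 FPKM in sham-operated mice and 6.03, 9.59 and 7.06 FPKM in MI mice. In these 3 genes the groups did not overlap, and without MI replicate 2 the log2 fold changes of Hsd17b10 and Fastk were -0.67 and -0.68. Trnt1, the enzyme that adds the CCA end to tRNAs, was the 1 gene on the other side, with 3.15, 2.61, 2.28 and 2.80 FPKM in sham-operated mice and 4.52, 3.38 and 4.29 FPKM in MI mice (log2 fold change 0.45, and 0.55 without MI replicate 2). At an adjusted p under 0.05 by limma, 0 of the 29 were higher or lower with all mice, and 5 were higher and 13 lower without MI replicate 2, against 57.0% and 14.7% of all genes.

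Copies of mitochondrial sequence in the nuclear genome share reads with the mitochondrial genes. Among the GENCODE M21 transcripts, 17 nuclear genes matched 11 of the 37 genes over at least 100 bases at 90% identity or more, and 13 of them were above 0 FPKM in some mouse. Of these, 8 had a mean above 400 FPKM over the 7 mice, and 7 of the 8 lay side by side on chromosome 1 (chr1:24611535-24616197, minus strand, GRCm38). Gm10925, Gm28661, Gm28437, Gm10222 and Gm28439 were identical over their aligned length to mt-Atp6, mt-Co2, mt-Co3, mt-Nd4l and mt-Nd4. The other 2 on chromosome 1, Gm29216 and Gm28438, each differed from their mitochondrial gene by 1 base. The windows below show that base in capitals, first for the mitochondrial gene and then for the copy, with positions counted from 1 at the 5′ end of the mitochondrial gene.
mt-Co1, positions 1063 to 1091: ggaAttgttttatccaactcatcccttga
Gm29216, A1066T: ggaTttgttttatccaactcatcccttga
mt-Nd3, positions 1 to 28: atTaacctgtacactgttatcttcatta
Gm28438, T3C: atCaacctgtacactgttatcttcatta

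Together the copies held 1.36% to 1.64% of the library in sham-operated mice and 0.835%, 1.32% and 0.889% in MI replicates 1 to 3, below all sham-operated mice. Of the fragments on members and copies together, the copies held 4.86% to 5.82% in sham-operated mice and 5.78%, 4.47% and 5.62% in MI mice. In 7 of the 8 copies MI replicates 1 and 3 were below all sham-operated mice, as in the genes they match. Gm28661, the copy of mt-Co2, had 3795, 3921, 3700 and 3698 FPKM in sham-operated mice and 2007, 3532 and 2040 FPKM in MI mice. Gm10925, the copy of mt-Atp6, had 4451, 4448, 4312 and 4244 FPKM in sham-operated mice and 2494, 4006 and 2402 FPKM in MI mice. Reads of identical copies cannot be told apart, so the levels of these copies and of their mitochondrial genes are uncertain.

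Gm29216, which matches the last 483 bases of mt-Co1 except at A1066T, was uneven within the groups. Its level was 5047, 9306, 4894 and 8837 FPKM in sham-operated mice and 4437, 4834 and 5662 FPKM in MI mice. Sham replicates 2 and 4 stood well above sham replicates 1 and 3, while mt-Co1 varied by only 940 FPKM (SD, n = 4) among these mice. Of the fragments on the pair, 2.41%, 4.48%, 2.35% and 4.14% were on the copy in sham-operated mice and 4.17%, 2.18% and 4.52% in MI mice, which did not follow the groups. When the fragments of the copies were added to the genes they match, an alternative chosen after seeing the data, 9 of 36 genes were lower with an unadjusted p under 0.05, against 9.79% of all genes, and 6 had all MI mice below all sham-operated mice, against 8.98% of all genes.

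**Figure D5:**
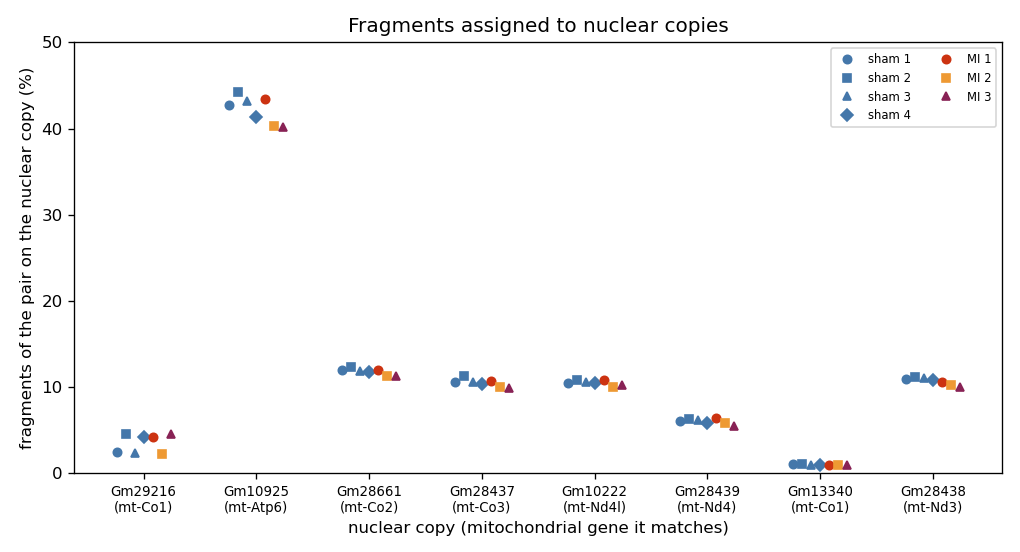
Fragments on each of the 8 highest nuclear copies as a percentage of those on the copy and its mitochondrial gene together, with 1 point per mouse. Gm10925 takes 40.2% to 44.3% of its pair with mt-Atp6, whereas Gm29216 divides into mice near 2.2% to 2.4% and mice at 4.1% to 4.5%, in both groups.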

How the data were processed

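The table holds 3 MI and 4 sham-operated mice, grouped by their labels. Its values, as deposited, are FPKM for 56980 genes, and 0 of its columns of per-mouse values were set aside. The submitters' processing notes name CASAVA 1.8, HISAT2, SAMtools 1.3.1, edgeR and the mm10 build. The counting program, the annotation and the strand setting are not given in the sources used here. Symbols, positions and lengths came from GENCODE M21 on GRCm38, which held 52073 identifiers (91.4%). Depth was inferred, as the total that made FPKM × length × depth whole for genes with a single exon, with a last adjustment on the mitochondrial genes. Fragment numbers were recovered as FPKM × length × depth, and 259 of 259 mitochondrial values came within 0.05 of a whole number. Since these values helped to set the depth, that count is not an independent check. Shares of the library were computed from FPKM × length and did not use the depth.

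Values were tested as log2(FPKM + 1), MI against sham without covariates, in the 11431 genes that reached an FPKM of 1 in 3 or more mice, by limma 3.58.1 (eBayes with trend) in R 4.3.3 with Benjamini-Hochberg adjustment at 0.05. A fold change on this scale understates the change of low genes. A test made for counts was not run, since the main values are FPKM. Within-mouse ratios were compared by exact two-sided permutation. Nothing beyond 1 library per mouse is stated about replicates, so p-values measure the spread between these mice. Nuclear copies were sought with blastn among the GENCODE transcripts. Alternatives were TPM, a filter on the mean or none, a pseudocount of 0.1, scaling by the median log-ratio or by nuclear fragments, limma without trend, a replicate block, each mouse left out and, added later, nuclear copies summed with their genes. Named genes were all protein and rRNA genes, the 5 highest tRNA genes, up to 5 tRNA genes whose groups did not overlap, the 5 highest nuclear copies, up to 3 higher and 3 lower genes of each list at an unadjusted p under 0.05, and the nuclear genes of the ratios, not all of which are described; Gm28438 was added after its values were seen, for its substitution. The members and lists were chosen with earlier results of these data known. Python 3.11.15 with SciPy 1.17.1, NumPy 2.4.6 and pandas 2.3.3 was used for the rest, and matplotlib 3.10.9 for figures.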

Additional observations from a re-analysis of the deposited data

Results flagged for a closer look

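Among the sham-operated mice, 4 of 53 sets of 4 values had a mouse far from the others, with a gap to the nearest value, as a share of the whole range, above Dixon's 95% critical value. Chance flags about 1 in 20 sets, or 2.65 of 53. The gap for mt-Co1 was 0.88 of the range, with sham replicate 2 low at 63145 FPKM against 64860 to 65094 in the others. For mt-Co2 it was 0.943, with sham replicate 3 low at 27312 FPKM against 27739 to 27764. For mt-Tm it was 0.907, with sham replicate 4 low at 678 FPKM against 804 to 817. For mt-Tr it was 0.974, with sham replicate 2 high at 106 FPKM against 101 to 102. These ranges are narrow against the distance to MI replicates 1 and 3.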

How the results depend on the processing

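MI replicate 2 decided the main count. The number of mitochondrial genes lower at an adjusted p under 0.05 by limma was 0 with all mice and 33 without MI replicate 2, a range of 0 to 33 over the mice left out in turn, and the number higher was 0 throughout. At an unadjusted p under 0.05 the 9 lower genes became 17 with limma without trend (9.99% of all genes) and 3 to 34 with a mouse left out (4.68% to 15.5% of all genes), the 34 arising without MI replicate 2. The 5 genes with all MI mice below all sham-operated mice became 2 under scaling by the median log-ratio (13.5% of all genes), 2 under scaling by nuclear fragments (10.6%) and 5 to 34 with a mouse left out (9.94% to 16.9%). The difference in the share of the library ranged from -12.6 to -5.26 percentage points. Of 368 alternatives for the log2 fold changes of the 23 named members, 344 kept direction and side of the threshold, 23 passed it, all without MI replicate 2, and 1 reversed, that of mt-Nd6, which was 0.039 without MI replicate 1 and ranged from -1.08 to 0.039 with a mouse left out.

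The log2 ratio differences ranged, with a mouse left out, from -0.25 to 0.41 for mt-Nd6 to mt-Cytb, from -0.31 to 0.053 for mt-Rnr2 to mt-Co1 and from -0.20 to 0.091 for mt-Co1 to Cox4i1, so these 3 changed sign and the cause was not tested. The other 4 kept their sign, and 0.0571 was the smallest exact p among the ratio alternatives. With a replicate block, 0 mitochondrial genes were lower at an adjusted p under 0.05 by limma (0 of all genes), and 7 with an unadjusted p under 0.05, against 4.92% of all genes. No pairing by number was seen: deviations of same-numbered mice from their group means correlated at -0.08 to 0.07, and 1 of 3 MI mice correlated best with its own number. MI replicate 2 stood apart within its group and weighs on these deviations, so the check cannot exclude a pairing. Depth limits the 12 tRNA genes under 50 fragments. The comparison without MI replicate 2 is limited by its 2 remaining MI mice and by the choice of that mouse from its values.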
